A study of Mus musculus with 12 samples.

Results

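Ribosome biogenesis genes in the glomeruli of diabetic mice were examined across all 12 sequenced animals. The members were chosen by their Gene Ontology terms in the deposited tables, small-subunit processome or rRNA processing, after the genes of the ribosomal proteins themselves were set aside. No measured value was part of that rule. It took 109 of the 14096 listed genes, of which 30 carried the processome term, 99 the rRNA processing term and 20 both, while 14 ribosomal protein genes with either term were left out. The mice were male eNOS-/- animals on the C57BL/6J strain, which lack endothelial nitric oxide synthase in every cell, so the controls carried the deletion too. Streptozotocin (STZ), a toxin of the insulin-producing beta cells, made the diabetic mice diabetic when injected at 50 mg/kg on 5 days at the age of 8 weeks, and nondiabetic mice had received citrate buffer. Arctigenin (ATG), a plant lignan, was given by gavage at 40 mg/kg per day for 8 weeks beginning 10 weeks after induction, and its control was 5% DMSO. Each of the 4 groups (nondiabetic with vehicle, nondiabetic with ATG, diabetic with vehicle, diabetic with ATG) held 3 mice, and glomeruli were collected 18 weeks after induction.

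A ribosome is assembled in the nucleolus from rRNA that RNA polymerase I transcribes as a long precursor. The small-subunit processome, built around the U3 small nucleolar RNA, folds and cuts the part of the precursor that becomes the 40S subunit, while other factors cut the internal spacers and mature the 60S subunit, the exosome trims and degrades spacer RNA, and guide-RNA particles of the box C/D and H/ACA classes methylate and pseudouridylate the rRNA. Growing and dividing cells make more ribosomes than resting ones, and many genes of this pathway are known targets of the transcription factor Myc.

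The values are log2 of reads scaled to a common library total, so a difference of 1 is 2-fold, and levels of genes are comparable between mice but not between genes unless divided by length. The libraries held 23.6 to 29.8 M reads on listed genes, and no member had fewer than 52 reads in any mouse. The standard errors come from the spread of the mice within groups. That spread also holds counting error, and its share was not separated. Markers of the labelled tissue were present, with 20 of 20 podocyte markers and 15 of 15 glomerular endothelial markers listed. Markers of kidney tubule (35 of 35 listed) are not glomerular, and they took 1.67 to 2.05% of the summed linear values in nondiabetic vehicle mice, 2.39 to 3.44% in nondiabetic ATG mice, 0.411 to 1.11% in diabetic vehicle mice and 0.795 to 0.930% in diabetic ATG mice. Nondiabetic ATG mice also had the lowest mesangial share, 0.0864 to 0.121% against 0.181 to 0.233% in nondiabetic vehicle mice. In bulk RNA, fewer cells of a type and less RNA per cell cannot be told apart. The labels also describe a dissociation and sorting of glomerular cells that the methods of the study do not mention for this RNA.

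In vehicle-treated mice, diabetes was compared with no diabetes. Of the 109 members, 20 were higher in the diabetic mice (18.3%, against 10.2% of all listed genes) and 1 was lower (0.917%, against 8.63%), at an adjusted p under 0.05 in limma's moderated test over all listed genes. At an unadjusted p under 0.05, 43 members were higher and 5 lower, against 18.5% and 17.0% of all genes. The sign was positive in 89 members (81.7%, against 51.2% of all genes), and the lowest diabetic mouse lay above the highest nondiabetic mouse in 52 members (47.7%, against 23.0%), while the reverse held in 4 (3.67%, against 18.7%). The differences were small, with a median log2 fold change of 0.14 over the members and 0.01 over all genes. In each of the 20 members called higher, the 3 diabetic mice lay above the 3 nondiabetic mice without overlap. Calls depended on single mice: without the second nondiabetic vehicle mouse 7 members were called higher, without the first diabetic vehicle mouse 8, and without the third nondiabetic vehicle mouse 12. Calls over all genes fell in these fits too, from 1442 higher to 475, 555 and 853.

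The proteins of the box C/D particles, which methylate rRNA and include the U3 particle, had 4 of 4 members higher, against 10.2% of all genes. A further protein of these particles, Nhp2l1, carries neither term and was not called (0.08, SE 0.086, adjusted p = 0.557, groups overlapping). Rrp9, which binds U3 in particular, was at 8.87, 8.85 and 8.94 in the nondiabetic mice and at 9.39, 9.40 and 9.35 in the diabetic mice. That is 1.41 times the nondiabetic level (log2 fold change 0.50, SE 0.069, adjusted p = 0.00279), and the gap between the groups was wider than the range within either. Nop58, a scaffold of the particle, was at 9.80, 9.98 and 9.95 against 10.41, 10.27 and 10.34 (0.43, SE 0.079, adjusted p = 0.00704). Its partner Nop56 was at 9.95, 9.80 and 9.87 against 10.34, 10.38 and 10.14 (0.42, SE 0.075, adjusted p = 0.00694). Fbl encodes fibrillarin, the methyltransferase itself. It was at 10.22, 10.16 and 10.13 against 10.51, 10.54 and 10.32 (0.29, SE 0.083, adjusted p = 0.0354), with the third diabetic mouse closest to the nondiabetic ones. In RefSeq coordinates on GRCm38.p6, Rrp9 lies at chr9:106477309-106485415, Nop58 at chr1:59684961-59711510, Nop56 at chr2:130274367-130279313 and Fbl at chr7:28168893-28179269, all on the plus strand. Nop56 shares part of its locus with Idh3b on the opposite strand, and whether reads were counted by strand is not given in the sources used here.

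**Figure D1:**
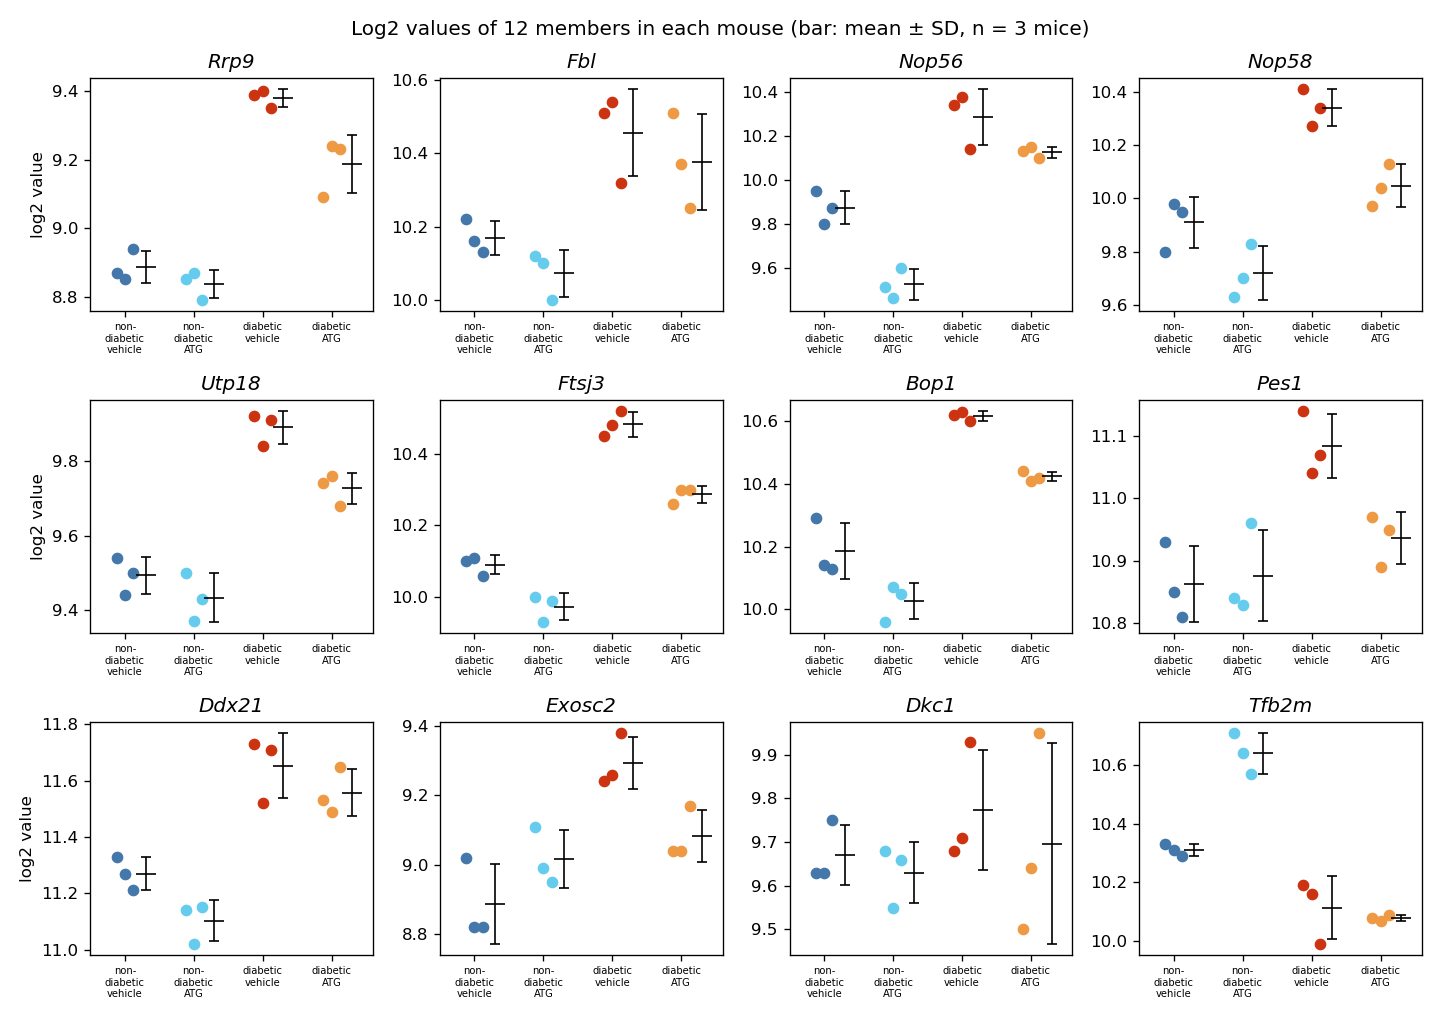
Log2 value (vertical axis, each panel on its own scale that does not begin at 0) of 12 members in each mouse, with groups along the horizontal axis, 1 point per mouse and a bar for the mean ± SD of 3 mice. In the 10 panels from Rrp9 to Exosc2 the diabetic vehicle mice lie above the nondiabetic vehicle mice, whereas Dkc1 overlaps and Tfb2m runs the other way.

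The UTP-B complex, an early scaffold of the processome, had 3 of 5 members higher, against 10.2% of all genes. Utp18 was at 9.54, 9.44 and 9.50 in nondiabetic and 9.92, 9.84 and 9.91 in diabetic mice (0.40, SE 0.063, adjusted p = 0.00456). Tbl3 differed by 0.31 (adjusted p = 0.0370) and Wdr3 by 0.24 (adjusted p = 0.0309), while Pwp2 at 0.20 and Utp6 at −0.08 did not pass. Wdr36, a UTP-B protein outside the terms, was not called either (0.04, SE 0.069, adjusted p = 0.726), which gives 3 of 6 listed subunits higher. Wdr3 lies partly over Spag17 on the opposite strand. The UTP-A complex binds the first part of the precursor as it is transcribed, and 1 of its 4 members rose, Cirh1a (the older symbol of Utp4), at 9.40, 9.31 and 9.37 against 9.72, 9.61 and 9.54 (0.27, SE 0.081, adjusted p = 0.0409). Of the UTP-A proteins outside the terms, Wdr75 rose (0.40, SE 0.10, adjusted p = 0.0227) and Wdr43, at 0.19, was not called (adjusted p = 0.0690), which gives 2 of 6 listed subunits higher. Its largest subunit, Heatr1, was at 0.05 (SE 0.089) and overlapped. None of the 3 members of the Mpp10 complex, which joins U3 to the precursor, passed in limma, although Mphosph10, at 0.39, did not overlap (adjusted p = 0.0560, unadjusted 0.0114) and was the 1 member called by limma-voom on recovered reads. Imp3 was at 0.12 and Imp4 at 0.09.

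Among 26 further small-subunit factors, 3 rose and 1 fell, and 23 had a positive sign. Of all genes, 10.2% were called higher, 8.63% were called lower and 51.2% had a positive sign. The count of these factors called higher was thus near the share over all genes. Nop14, which links processome modules, was at 9.85, 9.79 and 9.71 against 10.20, 10.05 and 10.01 (0.31, SE 0.076, adjusted p = 0.0204). Utp23 was at 8.51, 8.72 and 8.76 against 9.06, 8.99 and 8.87 (0.31, SE 0.090, adjusted p = 0.0348). Pdcd11, the homologue of yeast Rrp5 that acts in both subunit pathways, was at 10.65, 10.59 and 10.58 against 10.81, 10.76 and 10.80 (0.19, SE 0.056, adjusted p = 0.0397). The lower groups of mice in these 3 genes were the nondiabetic ones, without overlap. Utp20 was at 0.07 and Emg1 at 0.06, neither called. The member that fell, Utp14b, was at 6.85, 7.00 and 6.68 in nondiabetic and 6.06, 6.21 and 6.27 in diabetic mice (−0.66, SE 0.15, adjusted p = 0.0165). It is a retrocopy of Utp14a whose locus (chr1:78657825-78667601) lies inside that of Acsl3 on the same strand, and it had the lowest level per length of all members, so its reads may be shared with either gene and its value is uncertain. Utp14a itself was at 0.27 with an adjusted p of 0.0875.

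Of 21 large-subunit factors 4 rose, with 19 positive, against 10.2% and 51.2% of all genes. Ftsj3, a methyltransferase of pre-60S particles, had the lowest p of all members and was at 10.10, 10.11 and 10.06 against 10.45, 10.48 and 10.52 (0.39, SE 0.052, adjusted p = 0.00248). Bop1 and Pes1 form with Wdr12 the PeBoW complex, which is needed to remove the second internal spacer. Bop1 was at 10.29, 10.14 and 10.13 against 10.62, 10.63 and 10.60 (0.43, SE 0.060, adjusted p = 0.00299), and its locus (chr15:76452988-76477249, minus strand) overlaps Mroh1 and Scx on the opposite strand. Pes1 was at 10.93, 10.85 and 10.81 against 11.14, 11.04 and 11.07 (0.22, SE 0.060, adjusted p = 0.0315). Wdr12 had a difference of 0.32 and did not pass (adjusted p = 0.105, groups overlapping), so 2 of the 3 subunits were called. The helicase Ddx27, a partner of PeBoW, rose by 0.31 (SE 0.066, adjusted p = 0.0126). Las1l, the endonuclease that cuts that spacer, was at −0.01, and Sbds, which helps to release a late 60S factor, was at 0.25 with an adjusted p of 0.0968.

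The exosome degrades and trims RNA from its 3′ end. Of 19 members in and around it 3 rose, against 10.2% of all genes. These 3 are subunits of its catalytically inert barrel and cap. Exosc6 was at 8.75, 8.45 and 8.76 against 9.32, 9.35 and 8.99 (0.56, SE 0.14, adjusted p = 0.0217), the largest positive difference of any member. Exosc2 was at 9.02, 8.82 and 8.82 against 9.24, 9.26 and 9.38 (0.41, SE 0.084, adjusted p = 0.0111), and Exosc1 at 8.87, 8.69 and 8.86 against 9.09, 9.16 and 9.05 (0.29, SE 0.074, adjusted p = 0.0227). The nucleases Exosc10 and Dis3 were at 0.12 and 0.19 and did not pass, and Dis3l, the cytoplasmic counterpart of Dis3, was at −0.19 (adjusted p = 0.101). Pop4, a subunit of RNase MRP, rose by 0.26 (SE 0.076, adjusted p = 0.0385), and the other member from that enzyme, Pop5, was at 0.02.

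The H/ACA particles, which pseudouridylate rRNA, had no call in limma or in limma-voom among 5 members, with 2 higher at an unadjusted p under 0.05. Nhp2 was at 0.27, Gar1 at 0.24, the synthase Dkc1 at 0.10, the assembly factor Naf1 at 0.08 and Nop10 at 0.00. Dkc1 ranged from 9.63 to 9.75 in the nondiabetic and from 9.68 to 9.93 in the diabetic mice, so the groups overlapped. Of 6 members that act on rDNA chromatin or transcription, Ddx21 rose. It encodes a helicase found at rDNA and on snoRNAs, and was at 11.33, 11.27 and 11.21 against 11.73, 11.52 and 11.71 (0.38, SE 0.074, adjusted p = 0.00883). Sirt1, a deacetylase, was at 10.31, 10.29 and 10.42 against 10.15, 10.17 and 10.17 (−0.18, SE 0.061, adjusted p = 0.0627), without overlap but not past the threshold.

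The rRNA processing term also takes 9 genes that act on mitochondrial rRNA, which is made and modified apart from the nucleolus. None was called in limma or in limma-voom, with 2 lower at an unadjusted p under 0.05 in each, and 6 of 9 had a negative sign (median −0.08, against 0.14 over all members). Tfb2m, a mitochondrial transcription factor related to rRNA methyltransferases, was at 10.33, 10.31 and 10.29 in nondiabetic and 10.19, 10.16 and 9.99 in diabetic mice (−0.20, SE 0.066, adjusted p = 0.0594). Ybey, an RNA endonuclease of the organelle, was at 9.43, 9.07 and 9.25 against 8.75, 9.13 and 8.15 (−0.58, SE 0.23, adjusted p = 0.0962), with the second diabetic mouse among the nondiabetic ones. The remaining members ranged from −0.19 (Mterf4) to 0.26 (Rnmtl1, now Mrm3). These role groups, and those of Utp25 (listed as Diexf), Nol8, Wdr55, Npm3, Pa2g4, Dis3l, Dis3l2, rDNA chromatin and other, were assigned after values had been seen.

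**Figure D2:**
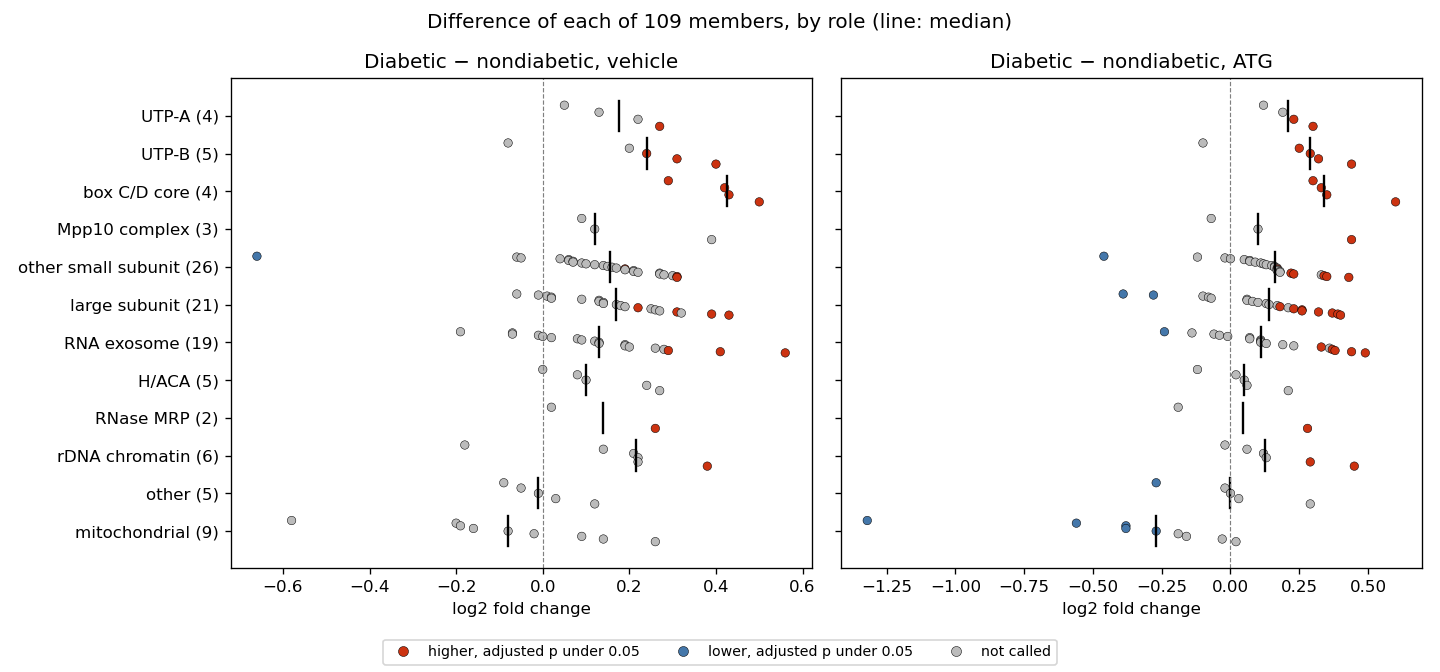
Log2 fold change (horizontal axis) of diabetic over nondiabetic mice for each of the 109 members, grouped by role (vertical axis, number of members in brackets), with vehicle on the left and ATG on the right, 1 point per gene coloured by its call and a line for the median of the role. The 4 box C/D core members are all called higher in both panels, and the 9 mitochondrial members have the lowest median in both, with 5 called lower under ATG.

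Other measures moved with the diabetic group. Of the 35 tubule markers, 22 were called lower, with a median log2 fold change of −1.40, and 13 of 14 listed proliferation markers were called higher, with a median of 1.37. Endothelial markers had 7 of 15 called higher (median 0.46) and leukocyte markers 4 of 14 (median 0.59), while the 20 podocyte markers had a median of 0.09. Mesangial markers had 1 of 13 higher and 2 lower, and 3 of 6 listed erythrocyte markers were higher. In each mouse, the mean deviation of the 100 members outside the mitochondrial group from their 12-mouse mean was −0.03, −0.04 and −0.06 in the nondiabetic vehicle mice and 0.14, 0.09 and 0.09 in the diabetic vehicle mice. When the tubule marker mean was added to the fit as a covariate, 4 members were called higher (Bop1, Exosc6, Fbl and Nop56) and none lower, while 84 still had a positive sign, the median over the members was 0.16 against 0.14 without it, and calls over all genes went from 1442 to 156 higher. The part of cell division and of the other cell types in the members' difference was not tested.

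**Figure D3:**
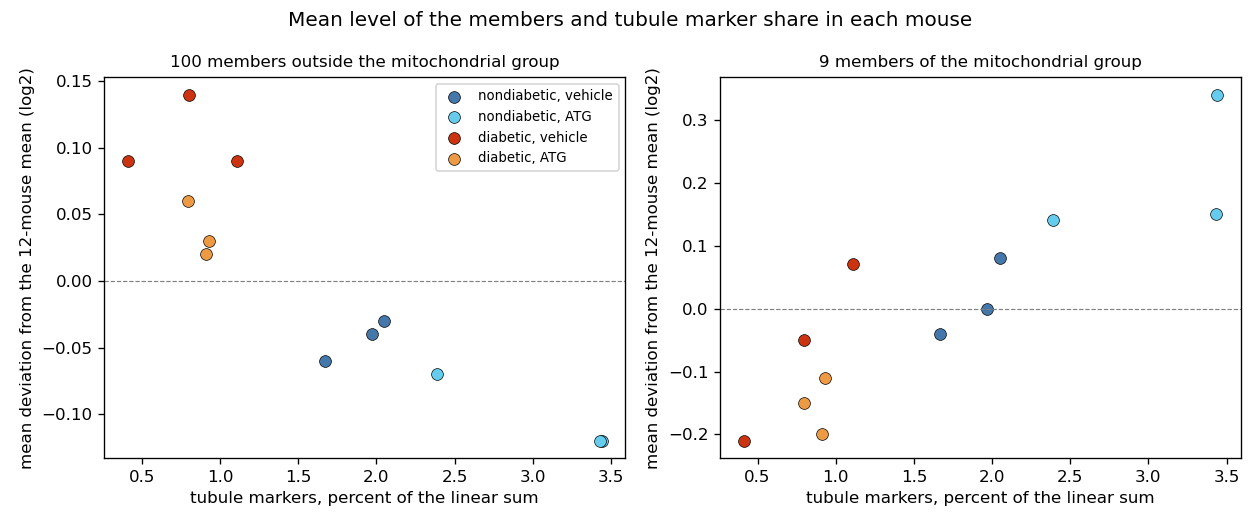
Mean deviation of the members from their 12-mouse mean on the log2 scale (vertical axis) against the share of the linear sum taken by 35 tubule markers, in percent (horizontal axis), 1 point per mouse coloured by group, for 100 members outside the mitochondrial group on the left and 9 within it on the right. The diabetic vehicle mice lie at 0.09 to 0.14 on the left with tubule shares of 0.411 to 1.11%, and the nondiabetic ATG mice at −0.12 to −0.07 with shares of 2.39 to 3.44%.

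ATG was then compared with vehicle in diabetic mice. This comparison uses the same diabetic vehicle mice as the preceding one, so a value high by chance in those mice would appear in both with opposite signs. No member and no listed gene passed the adjusted threshold in limma in either direction (0.00% of all genes), nor in limma-voom, and the lowest adjusted p was 0.917 among members. At an unadjusted p under 0.05, 12 members were lower (11.0%, against 2.81% of all genes) and 1 was higher (0.917%, against 1.70%). The sign was positive in 22 members (20.2%, against 48.2%), and the median was −0.07 against −0.01 over all genes. All 3 ATG mice lay below all 3 vehicle mice in 20 members (18.3%, against 6.32%) and above them in 1 (0.917%, against 3.85%). Marker medians in this comparison were 0.34 for tubule, −0.45 for leukocyte, −1.03 for erythrocyte and −0.05 for proliferation.

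The values of the members with the lowest p are given side by side with the nondiabetic level, without a claim of change. Nop58 was at 10.41, 10.27 and 10.34 with vehicle and 9.97, 10.04 and 10.13 with ATG (−0.29, SE 0.079, unadjusted p = 0.00343, adjusted p = 0.917), and the lowest of the ATG mice lay below the highest nondiabetic vehicle mouse, at 9.98. Ftsj3 was at 10.26, 10.30 and 10.30 with ATG (−0.19, SE 0.052, adjusted p = 0.917), and Bop1 at 10.44, 10.41 and 10.42 (−0.19, SE 0.060, adjusted p = 1.00). In both, the ATG mice lay between the diabetic and the nondiabetic vehicle mice without touching either. Rrp9 was at 9.09, 9.24 and 9.23 (−0.20, SE 0.069), also between the groups. Nop56, at 10.13, 10.15 and 10.10, and Fbl, at 10.51, 10.37 and 10.25, both overlapped with the diabetic vehicle mice. All 21 large-subunit factors, 4 of 4 box C/D core members, 5 of 5 UTP-B, 4 of 4 UTP-A, 3 of 3 Mpp10 and 5 of 5 H/ACA members had a negative sign, as did 51.8% of all genes. The sign was mixed in the other roles, among them 9 of 26 further small-subunit factors, 6 of 19 exosome members and 2 of 9 mitochondrial members positive. Of 75 processing genes outside the terms, 64 had a negative sign and 11 a positive one, with the UTP-B protein Wdr36 (0.04) among the latter. Among the mitochondrial members, Mrm1, a ribose methyltransferase, was at 8.57, 8.74 and 8.63 with ATG against 8.87, 9.02 and 8.78 (−0.24, SE 0.087, unadjusted p = 0.0193). On the positive side were the exosome ring subunit Exosc7 (0.17, unadjusted p = 0.0488), the exosome cofactors C1d and Mphosph6 (both 0.15), Sirt1 (0.12) and Utp14b (0.21).

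**Figure D4:**
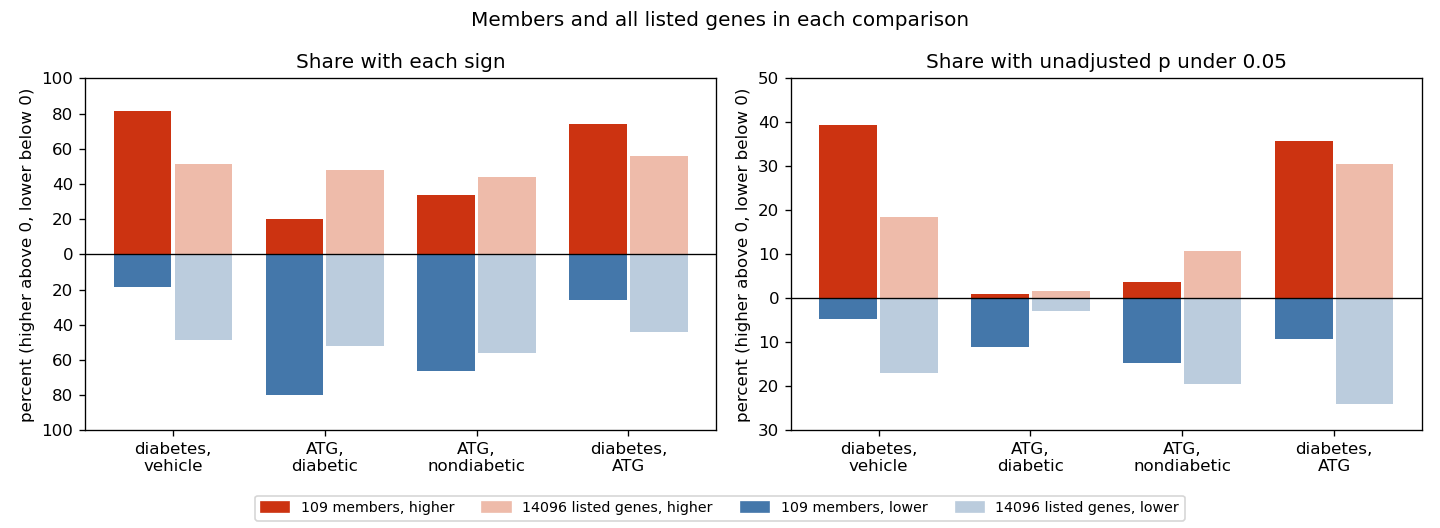
Percent of the 109 members (dark bars) and of all 14096 listed genes (light bars) that were higher (above 0) or lower (below 0) in each of 4 comparisons, by sign on the left and at an unadjusted p under 0.05 on the right. On the right, 39.4% of members were higher in diabetes with vehicle, against 18.5% of all genes, and 11.0% were lower with ATG in diabetic mice, against 2.81%.

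In nondiabetic mice, ATG went with 1 member called higher (0.917%, against 0.709% of all genes) and 2 lower (1.83%, against 4.51%). At an unadjusted p under 0.05, 4 were higher and 16 lower, against 10.7% and 19.5% of all genes. The median was −0.04 over members and −0.04 over all genes, and the positive sign in 37 members (33.9%, against 43.8%) became 57 under median-ratio scaling and 53 in limma-voom. These scalings moved the median of all genes to 0.01 and 0.00 and that of the members to 0.00 and −0.00, so the members lay with all genes under each scaling. Tfb2m rose, from 10.33, 10.31 and 10.29 to 10.71, 10.64 and 10.57 (0.33, SE 0.066, adjusted p = 0.0225). Nop56 was lower, at 9.51, 9.46 and 9.60 against 9.95, 9.80 and 9.87 (−0.35, SE 0.075, adjusted p = 0.0304), and so was Pdcd11, at 10.34, 10.36 and 10.41 against 10.65, 10.59 and 10.58 (−0.24, SE 0.056, adjusted p = 0.0391). Groups did not overlap in these 3 genes, but Nop56 and Pdcd11 lost their calls under both other scalings. All 3 calls were lost without the first or the second ATG mouse and without the first or the third vehicle mouse. Exosc10 (−0.25), Heatr1 (−0.27) and Dimt1 (−0.35) had negative values that did not pass, and Nsun4 (0.31), Nsa2 (0.15), Pop5 (0.22) and Ybey (0.49) had positive values that did not. Of the 9 mitochondrial members, 8 had a positive sign, with a median of 0.17. These nondiabetic ATG mice are also the reference of the comparison of diabetic with nondiabetic mice under ATG. The tubule share was higher in these ATG mice, and with the tubule covariate none of the 3 genes was called, at log2 fold changes of 0.26 (Tfb2m), −0.42 (Nop56) and −0.21 (Pdcd11). Other marker lists moved too, with 8 of 15 endothelial markers (median −0.64) and 8 of 13 mesangial markers (median −0.96) called lower, and medians of −0.57 for podocyte and 0.77 for tubule markers. Their part in the members' values was not tested.

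Among ATG-treated mice, diabetic animals were compared with nondiabetic ones, a comparison that shares no mouse with the one under vehicle. Here 33 members were higher (30.3%, against 25.9% of all genes) and 10 lower (9.17%, against 20.8%), and at an unadjusted p under 0.05 there were 39 and 10, against 30.5% and 23.9%. The sign was positive in 81 members (74.3%, against 56.0%), with a median of 0.13 against 0.05. Of the 20 members called higher under vehicle, 16 were also called higher under ATG (80.0%, against 83.8% for all genes), which was 48.5% of the 33 (against 33.1%). The sign was shared by 87 members (79.8%, against 78.7% of all genes), a share near that of the background.

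Nop56 had the lowest p among the members higher, at 9.51, 9.46 and 9.60 in nondiabetic and 10.13, 10.15 and 10.10 in diabetic ATG mice (0.60, SE 0.075, adjusted p = 0.000299). It was followed by Bop1 (0.39, SE 0.060, adjusted p = 0.000758), Pdcd11 (0.34, SE 0.056), Ddx21 (0.45, SE 0.074) and Ftsj3 (0.32, SE 0.052). All 4 box C/D core members, 4 of 5 UTP-B members and 8 of 21 large-subunit factors rose, against 25.9% of all genes. Of the large-subunit factors, 2 fell, against 20.8% of all genes. Outside the terms, the box C/D protein Nhp2l1 (0.17, adjusted p = 0.124) and the UTP-B protein Wdr36 (−0.02, adjusted p = 0.817) were not called. Exosc10 (0.33) and Heatr1 (0.30), which had not passed under vehicle, were also called. Of the 10 members that were lower, 5 were mitochondrial. Ybey was at 10.04, 9.78 and 9.41 against 8.55, 8.45 and 8.28 (−1.32, SE 0.23, adjusted p = 0.00132), or 0.401 times the nondiabetic level, and at −0.29 (adjusted p = 0.643) with the tubule covariate. Tfb2m was at 10.71, 10.64 and 10.57 against 10.08, 10.07 and 10.09 (−0.56, SE 0.066, adjusted p = 0.000234), and Nsun4 (−0.38), Mterf4 (−0.38) and Mrm1 (−0.27) were the others. Over all settings run, the weakest values were −0.37 (Tfb2m), −0.05 (Nsun4) and −0.16 (Mterf4), and Mrm1 reached 0.01. The large-subunit members Las1l (−0.28) and Npm3 (−0.39), the exosome subunit Exosc5 (−0.24), Lsm6 (−0.27) and Utp14b (−0.46) made up the rest. Of the 35 tubule markers, 32 were called lower here, and with their mean as a covariate 1 member, Nop56, was called (0.79, adjusted p = 0.0425). With that covariate calls over all genes went from 3649 to 88 higher and from 2936 to 12 lower, while 76 members had a positive sign and their median was 0.16 against 0.13 without it. Markers called higher were 14 of 14 for proliferation (median 1.45), 14 of 15 endothelial (1.09), 10 of 13 mesangial (0.74), 7 of 14 leukocyte (0.55) and 6 of 20 podocyte markers (0.61), and their part in the members' values was not tested.

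The difference between the ATG effects in diabetic and in nondiabetic mice was tested as an interaction. No member was called in limma or in limma-voom in either direction, against 0.539% of all genes higher and 0.00709% lower in limma, and the lowest adjusted p was 0.123. At an unadjusted p under 0.05 no member was higher and 8 were lower, against 9.63% and 3.23% of all genes, and 4 of the 8 were mitochondrial. They were Tfb2m (−0.37, SE 0.093), Mrm1 (−0.41, SE 0.12), Ybey (−0.74, SE 0.32) and Nsun4 (−0.29, SE 0.13). The others were Exosc2 (−0.34), Nsa2 (−0.21), Las1l (−0.26) and Npm3 (−0.42). Box C/D core members had a median interaction of −0.05.

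Further genes of the same pathway carry neither term in the deposited tables, and 75 of them were listed from the role lists. In diabetes with vehicle 25 of these were higher and none lower (10.2% and 8.63% of all genes), with 65 positive (51.2% of all genes) and a median of 0.18, and in limma-voom 26 were higher and none lower. Those higher included Bysl, a 40S assembly factor (0.72, SE 0.095, adjusted p = 0.00242), the 60S factors Mak16 (0.48) and Gnl3 (0.46), and Nob1, the nuclease that makes the end of 18S rRNA (0.38, SE 0.072). Of the 75, 50 were not called, among them Nat10 (0.10, adjusted p = 0.326) and Xrn2 (0.13, adjusted p = 0.160). With ATG in diabetic mice none was called in limma or limma-voom, 14 were lower and none higher at an unadjusted p under 0.05 (2.81% and 1.70% of all genes), and 64 had a negative sign. With the tubule covariate, 0 were called higher and 1 lower in diabetes, where 156 and 146 of all genes were called, and 58 had a positive sign. At an unadjusted p under 0.05, 19 were then higher and 4 lower.

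Of 24 genes of RNA polymerase I and its cofactors, 7 were higher in diabetes and none lower in either limma or limma-voom, where limma called 10.2% of all genes higher. The initiation factor Rrn3 was at 10.41, 10.32 and 10.34 in nondiabetic and 10.56, 10.63 and 10.72 in diabetic mice (0.28, SE 0.066, adjusted p = 0.0175). The largest subunit, Polr1a, differed by 0.25 (adjusted p = 0.0400), and the nucleolar proteins Nolc1 and Tcof1 by 0.28 and 0.26. Polr1b (0.13), the abundant nucleolar proteins Ncl (0.13) and Npm1 (0.09) and the rDNA factor Ubtf (−0.05) were not called. Myc was at 6.26, 6.22 and 6.48 in nondiabetic and 7.39, 7.50 and 6.68 in diabetic vehicle mice (0.87, SE 0.23, adjusted p = 0.0278), without overlap. It was at 6.47, 6.53 and 6.50 in diabetic ATG mice (−0.69 against vehicle, SE 0.23, unadjusted p = 0.0134, adjusted p = 1.00) and rested on 46 to 169 reads. Of its 11 listed relatives and partners, Myc included, Mycl (1.26) also rose, and Mycn was at −0.28. Of the repressors that compete for the partner Max, Mxd3 rose (1.23, adjusted p = 0.0133) and Mnt fell (−0.33, adjusted p = 0.0432).

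Because Myc binds the letters CACGTG, an E-box that reads alike on both strands, the RefSeq promoter windows (GRCm38.p6) of 86 of the members were searched for it. In the 250 bases before the start it was in 11 of 86 members (12.8%), against 9.7% of all listed genes with a window, in 1 of the 16 members called higher in diabetes that had a window (6.25%) and in 9 of the 69 not called (13%). With 50 bases after the start added, it was in 16 of 86 members (18.6%, against 11.4%) in 3 of those 16 (18.8%) and in 12 of those 69 (17.4%). A match is a description of the letters and not evidence of binding. The 4 called members with a match, 3 higher and Utp14b lower, are shown first, each 5′ to 3′ on the gene's strand with the motif in capitals, so that its place can be read. Utp18 (chr11:93885771-93885796, minus strand) has it 20 bases before the start, Pes1 (chr11:3963967-3963992, plus strand) at base 3 after it, Cirh1a (chr8:106893645-106893670, plus strand) at base 16 after it, and Utp14b (chr1:78658367-78658392, plus strand) 63 bases before it. The start is that of the transcript the RefSeq window was drawn from, and for Utp14b it lies inside the locus given above, so that match is within the gene and after its outermost start.
Utp18: gagcgccggtCACGTGgcttgcggcg
Pes1: ctaggcagggCACGTGcgggaggaag
Cirh1a: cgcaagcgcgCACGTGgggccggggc
Utp14b: cgggcgcgggCACGTGggtggggtcg

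Rrp9 and Utp18 are shown with all 250 bases before the start, as the box C/D and UTP-B members with the largest differences. Rrp9 (chr9:106477059-106477308, plus strand) holds no CACGTG in this stretch, and Utp18 (chr11:93885767-93886016, minus strand) holds it near the 3′ end.
Rrp9: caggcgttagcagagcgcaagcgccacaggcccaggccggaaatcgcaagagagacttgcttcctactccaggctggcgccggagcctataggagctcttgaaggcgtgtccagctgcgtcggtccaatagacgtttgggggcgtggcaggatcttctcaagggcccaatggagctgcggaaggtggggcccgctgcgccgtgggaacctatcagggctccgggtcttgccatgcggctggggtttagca
Utp18: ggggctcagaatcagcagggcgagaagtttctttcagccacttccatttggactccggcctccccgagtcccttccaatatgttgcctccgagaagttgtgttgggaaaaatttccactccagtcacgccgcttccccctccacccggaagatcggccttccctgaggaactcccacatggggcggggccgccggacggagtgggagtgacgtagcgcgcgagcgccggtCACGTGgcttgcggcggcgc

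Levels between members were compared as linear values per kilobase of exon, the median over 12 mice. Sbds was highest at 2450, followed by Rrp1 (2200), Imp3 (2090) and Nop10 (2010), and Utp14b was lowest at 26.3, below Chd7 (79.9) and Diexf (84.3). The box C/D core members lay within this range, with Fbl at 1040 (rank 10 of 109), Nop56 at 550 (rank 32), Nop58 at 509 (rank 39) and Rrp9 at 337 (rank 57).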

How the data were processed

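Male eNOS-/- mice were studied by mRNA sequencing of glomeruli, with poly(A) selection per the labels. The authors deposited 1 table per mouse with log2 values. On the linear scale these were reads times 1 factor per library, not divided by length: 83.4 to 83.9% of values under 2000 reads were, within 0.02, integers after division by the step of their library (1.00 to 1.27). The submitters' processing notes name build mm10 and limma without a version. Aligner and counting are not given in the sources used here.

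All 12 mice entered one fit of 4 groups in limma 3.58.1 (R 4.3.3) with a trend in the prior variance, Benjamini-Hochberg adjusted over 14096 genes, and a gene was called at an adjusted p under 0.05. All tests are two-sided. Replicates are separate mice, 3 per group (within-group Pearson's r 0.972 to 0.994). The members, role lists, marker lists and tests were chosen with earlier results of these data known, so counts over the members are descriptions beside the same counts over all genes. Named genes were landmark members of each role, in each comparison and direction the 5 members of lowest p, and 10 pathway genes. Others (Tbl3, Wdr3, Wdr12, Ddx27, Exosc1, Exosc2, Exosc6, Pdcd11, Utp23, Utp14a and the 60S factors outside the terms, among others) were chosen after values were seen because they were called or complete a complex. Alternatives were other scalings, limma-voom with trimmed-mean scaling on recovered reads, a minimum of 10 reads, only the groups compared, a replicate block, a tubule covariate, each GO term alone and each mouse left out. A prior variance without a trend, and leaving out both mice with unnumbered labels, were added after seeing the data. The step that calls genes was tested on simulated data. Figures were drawn with matplotlib 3.10.9.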

Additional observations from a re-analysis of the deposited data

How the results depend on the processing

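With 3 mice per group, each call rests on few animals. Diabetes with vehicle had 20 members higher and 1 lower. The count higher was 10 with the processome term alone (30 members), 12 with the replicate block and 4 with the tubule covariate, and 7 to 24 over the fits that each dropped 1 mouse. The count lower was 2 with median-ratio scaling, 0 with the covariate, 0 without both unnumbered nondiabetic mice and 0 to 3 with each mouse left out. Over all genes, 1442 higher and 1217 lower became 778 and 597 with the block and 156 and 146 with the covariate. With each mouse left out, 475 to 1822 of all genes were higher and 326 to 1633 lower. Under ATG, 33 members were higher and 10 lower. The count higher was 13 with the processome term alone, 20 with only the groups compared and 1 with the covariate (22 to 34 with each mouse left out). The count lower was 1, 4 and 0 in these settings, 2 with the block, 4 without both unnumbered mice and 4 to 11 with each mouse left out. Over all genes, 3649 higher and 2936 lower became 2894 and 2633 with only the groups compared. They became 88 and 12 with the covariate and 2534 and 1888 with the block. ATG in nondiabetic mice had 1 member higher, which was 0 with the processome term alone, with only the groups compared, with the covariate and without both unnumbered mice, and 0 to 2 with each mouse left out. It had 2 lower, which was 1 with the rRNA processing term alone, 1 with the block, 1 without a trend, 0 with both other scalings, with only the groups compared, with the covariate and without both unnumbered mice, and 0 to 8 with each mouse left out. Over all genes, 100 higher and 636 lower became 0 and 0 with only the groups compared. They became 0 and 47 with the covariate, and 0 and 8 without both unnumbered mice. The interaction had 0 to 1 members lower with each mouse left out. ATG in diabetic mice had no call under any alternative run.

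Same-numbered mice did not deviate together in every pair (correlations from −0.257 to 0.339 over the comparisons), and the numbers are not stated to mark a litter or day, so the replicate block is given here only, and 11 of the 21 members called in diabetes were called with it too. Among the members whose values were followed through every setting, those that changed sign in diabetes were not called before or after: with the covariate Dis3 (−0.08), Dkc1 (−0.25), Heatr1 (−0.13), Utp20 (−0.07) and Ybey (0.23), with the block Heatr1 (−0.04) and Utp20 (−0.05), Utp20 without the third diabetic vehicle mouse (−0.01, and up to 0.13 without another mouse), and Nop10 at −0.01 with median-ratio scaling, −0.00 in limma-voom, −0.02 without both unnumbered mice and −0.06 to 0.11 with single mice left out. Over all members, the number with a positive sign in diabetes went from 89 to 84 with median-ratio scaling, 87 in limma-voom and 84 with the covariate. Under ATG, Mrm1 went from −0.27 to 0.01 with the covariate. The cause of these changes was not tested.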

Other observations

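Of the 109 members, 17 have a locus that overlaps another listed gene. Only the spans of the loci were compared and strand use is not given, so how many reads come from the partner is not known. Besides those named above, the 17 include Dis3 with Pibf1, Dkc1 with Mpp1, Exosc9 with the cyclin gene Ccna2, Nhp2 with Rmnd5b and Ybey with Mcm3ap, all on opposite strands.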
